A study of Mus musculus with 35 samples.

Results

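The SR proteins and the Tra2 proteins are splicing factors of one related family, and their messenger RNAs were followed here in the livers of mice that had breathed styrene once. The members were 10 genes, Tra2a, Tra2b, Srsf1, Srsf2, Srsf3, Srsf5, Srsf6, Srsf7, Srsf10 and Srsf11, and they were selected on measured values of these same arrays, so their differences from air are a description and carry no test. Every probe set, a group of short probes read as 1 value, was taken whose platform annotation names exactly 1 gene and that gene is a member. That gave 28 of 45037 non-control probe sets, for 8 of the 10 genes: 6 for Srsf3, 5 for Srsf2, 4 each for Srsf1, Srsf6 and Srsf10, 3 for Srsf11 and 1 each for Tra2a and Tra2b. Srsf5 and Srsf7 are named alone by no probe set and were not analysed here, and 1 probe set that names Mettl23 beside Srsf2 was left out. No filter on low values was applied, so all 28 probe sets were tested.

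The mice were adult wild-type C57Bl/6 males bought from Taconic. Each was caged alone and inhaled either air or styrene vapour at 1, 5, 10, 20, 40 or 120 ppm for a single 6 hours, and was killed the following morning. Each of the 7 groups had 5 mice, each with 1 array of liver RNA, 35 arrays in all. Styrene, the monomer of polystyrene plastic, is oxidised in the liver to styrene oxide.

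SR proteins bind exons through an RNA recognition motif and recruit the splicing machinery through a tail rich in arginine and serine, which kinases of the SRPK and CLK families phosphorylate. The Tra2 proteins carry such tails on both sides of their RNA recognition motif. Many genes of the family hold a poison exon, whose inclusion marks the transcript for nonsense-mediated decay, so that different probe sets of 1 gene can read transcripts of different fate. Which exons the probe sets read was not determined here. Suffixes of probe set names come from the array's design: a_at sets read several transcripts of 1 gene, s_at sets can read transcripts of more than 1 gene, and x_at sets hold some probes that can bind unrelated transcripts. Of the 28 sets, 15 were plain at, 6 s_at, 5 a_at and 2 x_at.

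Sequence just upstream of the transcription start is given for Srsf1, Srsf10 and Srsf11, whose highest-reading probe sets went together within groups, for Srsf3, whose probe sets disagreed most, and for Tra2a, the 1 member with a cyclic AMP response element motif. Each line holds the 120 bases before the start site in RefSeq's promoter table for GRCm38.p6, read 5′ to 3′ along the gene's strand, with matches to the motifs in capitals.
Srsf1, chr11:88047253-88047372, plus strand: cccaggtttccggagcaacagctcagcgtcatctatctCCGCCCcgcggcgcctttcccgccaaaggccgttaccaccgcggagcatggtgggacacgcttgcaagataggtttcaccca
Srsf10, chr4:135855951-135856070, plus strand: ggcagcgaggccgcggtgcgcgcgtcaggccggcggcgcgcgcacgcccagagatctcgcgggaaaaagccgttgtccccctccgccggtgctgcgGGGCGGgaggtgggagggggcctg
Srsf11, chr3:158036607-158036726, minus strand: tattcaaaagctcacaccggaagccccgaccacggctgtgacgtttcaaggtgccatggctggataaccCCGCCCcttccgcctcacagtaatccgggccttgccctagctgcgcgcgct
Srsf3, chr17:29032540-29032659, plus strand: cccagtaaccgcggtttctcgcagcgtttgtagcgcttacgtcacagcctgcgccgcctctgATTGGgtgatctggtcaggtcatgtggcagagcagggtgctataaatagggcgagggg
Tra2a, chr6:49264053-49264172, minus strand: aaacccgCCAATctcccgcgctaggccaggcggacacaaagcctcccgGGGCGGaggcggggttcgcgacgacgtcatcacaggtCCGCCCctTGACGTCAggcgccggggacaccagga
The 250 bases upstream of the start were searched on both strands for the CCAAT box, for GGGCGG as the core of the GC box, for TGACGTCA as the cyclic AMP response element, for the E box CACGTG and for GAANNTTC as the unit of the heat shock element, and all 10 members were in the table. No motif contains another. GGGCGG was found in 9 of 10 member windows and in 32.7% of all 32851 windows of the table. The 1 member window without it was that of Srsf3, which held a CCAAT match instead. CCAAT was found in 4 of 10 members and in 33.8% of all windows, TGACGTCA in Tra2a alone against 1.5%, GAANNTTC in Tra2b alone against 6.7%, and CACGTG in 0 of 10 against 6.0%. A match is only a match of letters. The table holds another start for Srsf11, which was not used. By RefSeq's gene spans, the windows shown for Srsf1, Srsf10 and Tra2a lie inside the gene, and that of Srsf11 partly so. Of those shown, only that of Srsf3 lies wholly upstream of its gene. The Srsf2 gene (chr11:116849897-116853675) overlaps its neighbour Mfsd11 (chr11:116852211-116875660).

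Values are the authors' deposited log2 levels, on which 1 unit is a doubling, and arrays were correlated pairwise at 0.965 to 0.995. Hepatocyte markers read high in all arrays, with means of 12.1 to 14.1 over the 7 genes listed. Of 11 Kupffer cell markers, 4 fell at 40 ppm and 6 at 120 ppm by the linear model described next. Their summed linear level ran from 2359 to 4308 in air, from 1935 to 2414 at 40 ppm and from 1679 to 2516 at 120 ppm. The 5 exocrine pancreas markers measured summed to 289 to 448 in air, 183 to 209 at 40 ppm and 175 to 221 at 120 ppm, with 1 of 5 fallen at both doses. That 1 was Cela1, which made up most of the sum, at 246 to 401 in air, 144 to 168 at 40 ppm and 137 to 171 at 120 ppm. The other 4 summed to 43 to 60.7 in air, 36 to 42.9 at 40 ppm and 36.9 to 67 at 120 ppm. In whole liver, fewer cells of a type and less RNA per cell cannot be told apart. The part of these markers in the results on splicing factors was not tested.

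A probe set was called where limma's adjusted p against air was under 0.05 over all 45037 probe sets, with all 7 groups in 1 fit. At 1 ppm and 10 ppm, 0 of the 28 member probe sets were called. At 5 ppm 1 was called, the Tra2b set, which was higher. None were called at 20 ppm. The 40 ppm group had 8 called higher with 0 lower, and the 120 ppm group 5 with 0 lower. Over all probe sets, the share called in either direction was 0.00444% for 1 ppm, 0.153% for 5 ppm and 0% for 10 ppm. It was 0.415% higher and 0.619% lower at 20 ppm, 9.73% higher and 4.89% lower at 40 ppm, while 120 ppm had 13% higher and 6.4% lower. Since these contrasts chose the genes, nothing is read from the members' counts. At an unadjusted p under 0.05, the counts from the lowest dose to the highest were 6, 4, 6, 7, 11 and 10 higher and 1, 0, 0, 0, 1 and 4 lower of the 28. Over all probe sets the shares in that order were 3.2%, 4.42%, 3.77%, 6.25%, 19% and 22.3% higher and 2.43%, 2.66%, 2.6%, 5.9%, 10.5% and 11.4% lower.

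Small positive differences from air were already present at 1 ppm. From the lowest dose to the highest, 25, 21, 23, 20, 25 and 17 of the 28 member probe sets were above the air mean. The members' median log2 difference was 0.17, 0.07, 0.17, 0.12, 0.22 and 0.13 in that order. Over all probe sets it was -0.00, 0.00, 0.01, 0.01, 0.04 and 0.06. All 6 comparisons share the same 5 air mice, so they are not independent of each other.

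The mean level over the 28 probe sets of a mouse, by group with air first and then by rising dose, was 6.38 ± 0.15, 6.55 ± 0.13, 6.50 ± 0.22, 6.52 ± 0.12, 6.47 ± 0.17, 6.61 ± 0.12 and 6.47 ± 0.036 (SD, n = 5). Air mice ran from 6.25 to 6.56 and 120 ppm mice from 6.41 to 6.50, so the groups overlapped. The mean at 40 ppm was the highest of the 7, and air's was the lowest.

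**Figure D1:**
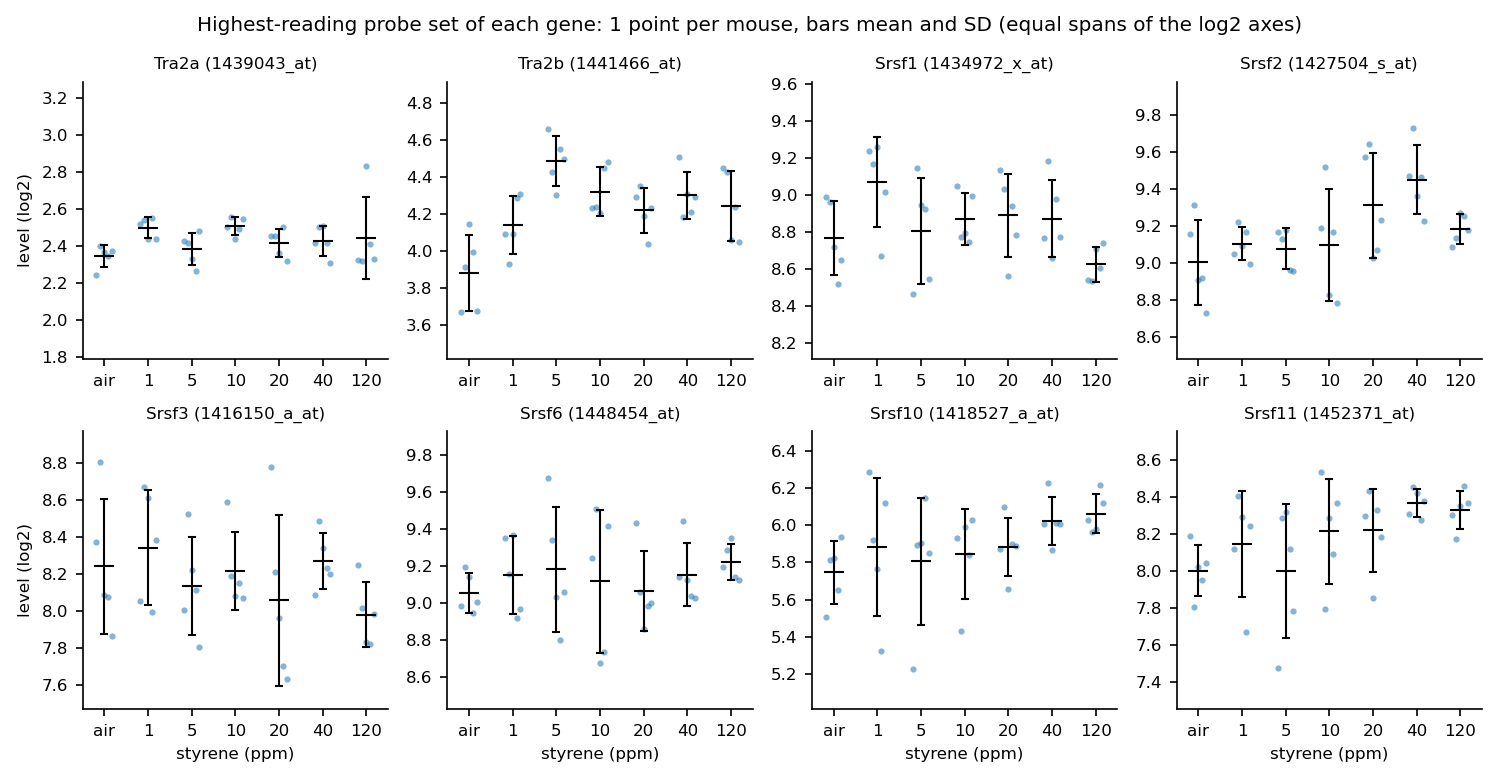
Log2 level of the highest-reading probe set of each of the 8 measured genes in each mouse (points) against styrene dose, with the group mean and SD as bars; each panel spans the same number of log2 units. Air and exposed mice overlap in most groups, whereas all 5 Tra2b values at 5 ppm (4.30 to 4.66) lie above every air value (3.67 to 4.14).

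Srsf1, the founding member of the family, which promotes use of 5′ splice sites and accompanies mRNA out of the nucleus, stood highest at 1 ppm and lowest at 120 ppm. Its highest-reading set, 1434972_PM_x_at, read 8.99, 8.96, 8.72, 8.52 and 8.65 in the air mice. At 1 ppm it read 9.24, 9.17, 9.26, 8.67 and 9.02, and at 120 ppm 8.54, 8.54, 8.71, 8.60 and 8.74. Most of the 1 ppm mice were above all air mice, and the 120 ppm mice fell inside the air range. Group means in rising order of dose, air first, were 8.77 ± 0.20, 9.07 ± 0.24, 8.81 ± 0.29, 8.87 ± 0.14, 8.89 ± 0.23, 8.87 ± 0.21 and 8.63 ± 0.09 (SD, n = 5). The log2 difference from air was 0.30 ± 0.13 (SE) at 1 ppm and -0.14 ± 0.13 at 120 ppm.

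The other 3 Srsf1 sets had the same order, with 1 ppm above air and 120 ppm below it. Set 1428100_PM_at, named here after its values were seen, had the widest span. It read 6.26, 5.98, 5.78, 5.87 and 5.61 in air and 5.18, 5.37, 5.44, 5.37 and 5.86 at 120 ppm, where 4 of 5 mice were below every air mouse. Its difference from air ran from 0.35 ± 0.18 at 1 ppm to -0.45 ± 0.18 at 120 ppm. No Srsf1 set was called against air at any dose.

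Srsf2, a protein of nuclear speckles that binds exonic enhancers, had its highest level at 40 ppm in its highest-reading set. Set 1427504_PM_s_at read 9.15, 9.31, 8.90, 8.91 and 8.73 in air, 9.47, 9.73, 9.36, 9.46 and 9.22 at 40 ppm, and 9.08, 9.13, 9.27, 9.25 and 9.17 at 120 ppm. Of the 40 ppm mice 4 of 5 were above every air mouse, and of the 120 ppm mice none. From air to 120 ppm the group means were 9.0 ± 0.23, 9.10 ± 0.09, 9.08 ± 0.11, 9.09 ± 0.30, 9.31 ± 0.28, 9.45 ± 0.19 and 9.18 ± 0.08 (SD, n = 5). The difference from air was 0.45 ± 0.13 at 40 ppm, where the set was called, and 0.18 ± 0.13 at 120 ppm. Without 40 ppm replicate 2, the highest mouse of that group, the set was no longer called.

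The Srsf2 sets fell into 2 kinds. Sets 1427504_PM_s_at, 1452439_PM_s_at and 1415807_PM_s_at went together from mouse to mouse, with pairwise Pearson r of 0.86 to 0.91 over the 35 arrays after group means were subtracted. The low-reading sets 1427816_PM_at and 1427815_PM_at had r of 0.08 to 0.31 with those 3, and 0.02 with each other. Sets 1452439_PM_s_at and 1415807_PM_s_at differed from air by 0.25 ± 0.13 and 0.19 ± 0.15 at 40 ppm. At 120 ppm they differed by 0.01 ± 0.13 and -0.04 ± 0.15, and neither was called at either dose. The group mean of 1415807_PM_s_at was 7.82 at 20 ppm and 7.81 at 40 ppm. Relative to 1427504_PM_s_at, they stood 0.20 and 0.25 lower at 40 ppm than in air. Set 1427816_PM_at was below air by 0.26 ± 0.12 at 40 ppm, where all 5 mice (3.85 to 4.15) were below the lowest air mouse (4.17). Set 1427815_PM_at was below air by 0.35 ± 0.11 at 1 ppm, with all 5 mice under the air range, and lay within 0.16 of air at each higher dose. These arrays share their preparation, and such correlations are given as description only.

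Srsf3, the smallest SR protein, which couples splicing to mRNA export and whose deletion in mouse hepatocytes is known to impair their maturation, was the gene whose probe sets differed most. Its highest-reading set, 1416150_PM_a_at, read 8.38, 8.81, 8.09, 8.08 and 7.87 in air, 8.09, 8.48, 8.34, 8.23 and 8.20 at 40 ppm, and 8.25, 8.02, 7.83, 7.82 and 7.98 at 120 ppm. The 7 group means, air first and then by rising dose, were 8.24 ± 0.36, 8.34 ± 0.31, 8.13 ± 0.27, 8.22 ± 0.21, 8.06 ± 0.46, 8.27 ± 0.15 and 7.98 ± 0.18 (SD, n = 5). The groups overlapped at every dose, and the difference at 120 ppm was -0.26 ± 0.18.

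Set 1438215_PM_at of the same gene was above air at both higher doses. It read 3.75, 3.81, 3.16, 3.56 and 3.88 in air, 4.55, 4.73, 4.56, 4.68 and 4.63 at 40 ppm, and 4.44, 4.02, 4.58, 4.44 and 4.76 at 120 ppm. All 10 mice of the higher pair of doses were above every air mouse. Group means in rising order of dose, air first, were 3.63 ± 0.29, 3.82 ± 0.34, 3.78 ± 0.34, 3.81 ± 0.28, 4.03 ± 0.25, 4.63 ± 0.08 and 4.45 ± 0.28 (SD, n = 5). The difference from air, 0.19 ± 0.17 at 1 ppm and 0.39 ± 0.17 at 20 ppm, stood at 1.00 ± 0.17 for 40 ppm and 0.81 ± 0.17 for 120 ppm. Of the other 5 sets, 4 were also above air at 40 ppm, by 0.03 to 0.18, and 1416151_PM_at was below it, at -0.11. At 120 ppm those 5 all lay below air, at -0.54 to -0.08, and none of them was called at either dose. Probe sets that read between 4 and 6 on average had a median difference of 0.16 at 40 ppm and 0.15 at 120 ppm over all genes, and the part of a set's level in its difference was not tested.

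Taken within each array, the difference between 1438215_PM_at and 1416150_PM_a_at stood 0.97 log2 units above its air mean at 40 ppm and 1.08 above it at 120 ppm. It was 0.09, 0.26, 0.21 and 0.58 above it at 1, 5, 10 and 20 ppm. Its SD within a group was 0.40 in air, 0.11 at 40 ppm and 0.35 at 120 ppm (n = 5). From mouse to mouse within groups, 1438215_PM_at had r of -0.11 to 0.27 with the other 5 sets, which had r of 0.74 to 0.94 with each other.

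**Figure D2:**
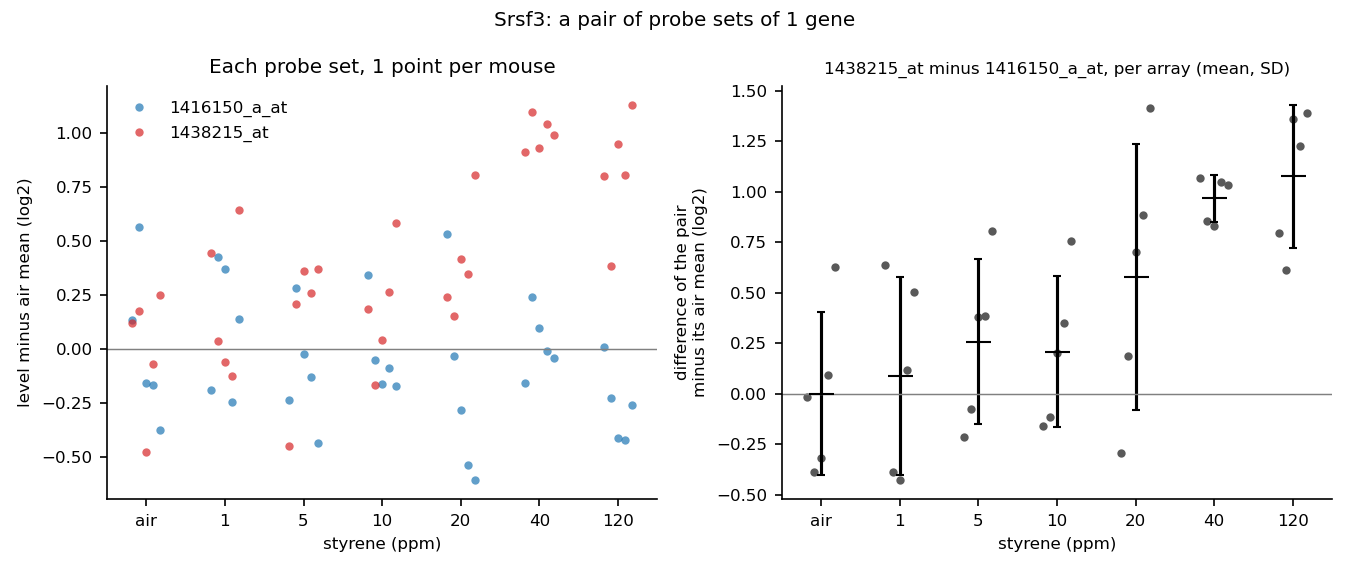
Left, log2 level minus the air mean of Srsf3 sets 1416150_PM_a_at and 1438215_PM_at in each mouse against dose. Right, the second set minus the first within each array, relative to air, with mean and SD; the mean reaches 0.97 at 40 ppm and 1.08 at 120 ppm.

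Srsf6, an enhancer-binding SR protein, had sets that were above air at every dose without a steady rise with dose. Its highest-reading set, 1448454_PM_at, read 8.99, 9.20, 9.14, 8.95 and 9.01 in air, 9.14, 9.44, 9.13, 9.04 and 9.03 at 40 ppm, and 9.20, 9.29, 9.35, 9.14 and 9.13 at 120 ppm, with overlap throughout. From air to 120 ppm the group means were 9.06 ± 0.11, 9.15 ± 0.21, 9.18 ± 0.34, 9.12 ± 0.39, 9.07 ± 0.22, 9.16 ± 0.17 and 9.22 ± 0.10 (SD, n = 5). The other 3 sets, named after their values were seen, lay further from air.

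Srsf6 set 1416721_PM_s_at read 8.82, 8.77, 8.50, 8.47 and 8.70 in air and 9.03, 8.93, 8.87, 8.99 and 8.93 at 1 ppm, where all 5 mice were above the air range. By rising dose, its difference from air was 0.30, 0.31, 0.22, 0.23, 0.37 and 0.31, each ± 0.10 (SE). It was called at 40 and 120 ppm, as was 1447898_PM_s_at, while 1416720_PM_at was called at 40 ppm only. Sets 1416721_PM_s_at and 1447898_PM_s_at were not called at 120 ppm without air replicate 3, air replicate 4 or 120 ppm replicate 4, nor with arrays centred on their medians, and 1447898_PM_s_at also not with only the groups compared. The 40 ppm calls of 1447898_PM_s_at and 1416720_PM_at were lost with centred arrays, that of 1416720_PM_at also without air replicate 3 or 4. Set 1448454_PM_at had r of 0.11 to 0.15 with the other 3 within groups, which had r of 0.49 to 0.82 among themselves.

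Srsf10, a family member that represses splicing when dephosphorylated after heat shock, was above air at every dose in all 4 of its sets. Its highest-reading set, 1418527_PM_a_at, read 5.50, 5.82, 5.82, 5.65 and 5.94 in air, 6.01, 6.23, 5.87, 6.02 and 6.01 at 40 ppm, and 6.03, 5.96, 5.98, 6.22 and 6.12 at 120 ppm, where all 5 mice were above the air range. The 7 group means, air first and then by rising dose, were 5.75 ± 0.17, 5.88 ± 0.37, 5.81 ± 0.34, 5.85 ± 0.24, 5.88 ± 0.16, 6.03 ± 0.13 and 6.06 ± 0.11 (SD, n = 5). The difference was 0.28 ± 0.14 at 40 ppm and 0.32 ± 0.14 at 120 ppm, and neither was called. Across the 4 sets the difference ran from 0.28 to 0.57 at 40 ppm and from 0.28 to 0.50 at 120 ppm. Set 1423982_PM_at, at 0.57 ± 0.17, was the 1 called, at 40 ppm, and lost its call with centred arrays, with a second quantile normalization and without air replicate 3, air replicate 4, 40 ppm replicate 2 or 40 ppm replicate 3.

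Srsf11, an SR-related protein with a tail rich in arginine and serine, was also above air in all 3 sets at 40 and 120 ppm. Its highest-reading set, 1452371_PM_at, read 8.19, 7.81, 8.02, 7.95 and 8.05 in air, 8.31, 8.46, 8.42, 8.28 and 8.38 at 40 ppm, and 8.30, 8.18, 8.35, 8.46 and 8.37 at 120 ppm. All mice at 40 ppm and 4 of 5 at 120 ppm were above every air mouse. Group means in rising order of dose, air first, were 8.0 ± 0.14, 8.15 ± 0.28, 8.0 ± 0.36, 8.22 ± 0.28, 8.22 ± 0.22, 8.37 ± 0.07 and 8.33 ± 0.10 (SD, n = 5). The difference was 0.37 ± 0.14 at 40 ppm and 0.33 ± 0.14 at 120 ppm.

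Srsf11 set 1430077_PM_at, which lay 0.49 from the highest-reading set at 120 ppm and so just under the 0.5 set for naming a further probe set, is given because it was called. It read 4.02, 3.88, 3.31, 3.72 and 3.78 in air, 4.36, 4.78, 4.23, 4.16 and 4.38 at 40 ppm, and 4.74, 4.08, 4.62, 4.79 and 4.57 at 120 ppm. No mouse at either dose overlapped the air group. By rising dose, the difference from air was 0.44, 0.57, 0.34, 0.33, 0.64 and 0.82, each ± 0.20 (SE). It was called at 40 and 120 ppm. At 40 ppm the call was lost in 6 of 18 alternative settings, which were both other scalings and the fits without air replicate 3 or 4 or without 40 ppm replicate 2 or 5, and at 120 ppm in 0 of 18.

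Tra2b, an activator that binds GA-rich exonic enhancers, was highest at 5 ppm. Its 1 set, 1441466_PM_at, read 3.67, 3.91, 4.14, 3.99 and 3.68 in air and 4.66, 4.43, 4.30, 4.55 and 4.49 at 5 ppm. The 40 ppm mice read 4.51, 4.18, 4.31, 4.21 and 4.29, and the 120 ppm mice 4.44, 4.43, 4.06, 4.23 and 4.05. All mice at 5, 10 and 40 ppm were above every air mouse, as were 2 of 5 at 1 ppm, 4 of 5 at 20 ppm and 3 of 5 at 120 ppm. From air to 120 ppm the group means were 3.88 ± 0.21, 4.14 ± 0.16, 4.49 ± 0.13, 4.32 ± 0.13, 4.22 ± 0.12, 4.30 ± 0.13 and 4.24 ± 0.19 (SD, n = 5). The difference for 5, 10, 40 and 120 ppm was 0.61, 0.44, 0.42 and 0.36, each ± 0.10 (SE), and it was called at 5, 40 and 120 ppm. The 5 ppm call was lost with only the groups compared in the fit, and the calls at 40 and 120 ppm were lost with a second quantile normalization, that at 120 ppm also with centred arrays. Without 5 ppm replicate 1, the array least correlated with its own group, the difference at 5 ppm was 0.56.

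Tra2a, the paralogue of Tra2b, was read by 1 set, 1439043_PM_at, near the bottom of the scale. It read 2.24, 2.40, 2.37, 2.34 and 2.37 in air, 2.42, 2.50, 2.51, 2.42 and 2.31 at 40 ppm, and 2.33, 2.32, 2.83, 2.41 and 2.33 at 120 ppm. The 7 group means, air first and then by rising dose, were 2.34 ± 0.06, 2.50 ± 0.06, 2.38 ± 0.09, 2.51 ± 0.05, 2.42 ± 0.08, 2.43 ± 0.08 and 2.44 ± 0.22 (SD, n = 5). All 5 mice were above the air range at 1 and 10 ppm, by differences of 0.15 and 0.16 ± 0.08, and the set was called at no dose. The lowest value of the deposited table was 1.74, so this set gives little room for a fall to show. Levels this near the bottom of the scale also understate changes.

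**Figure D3:**
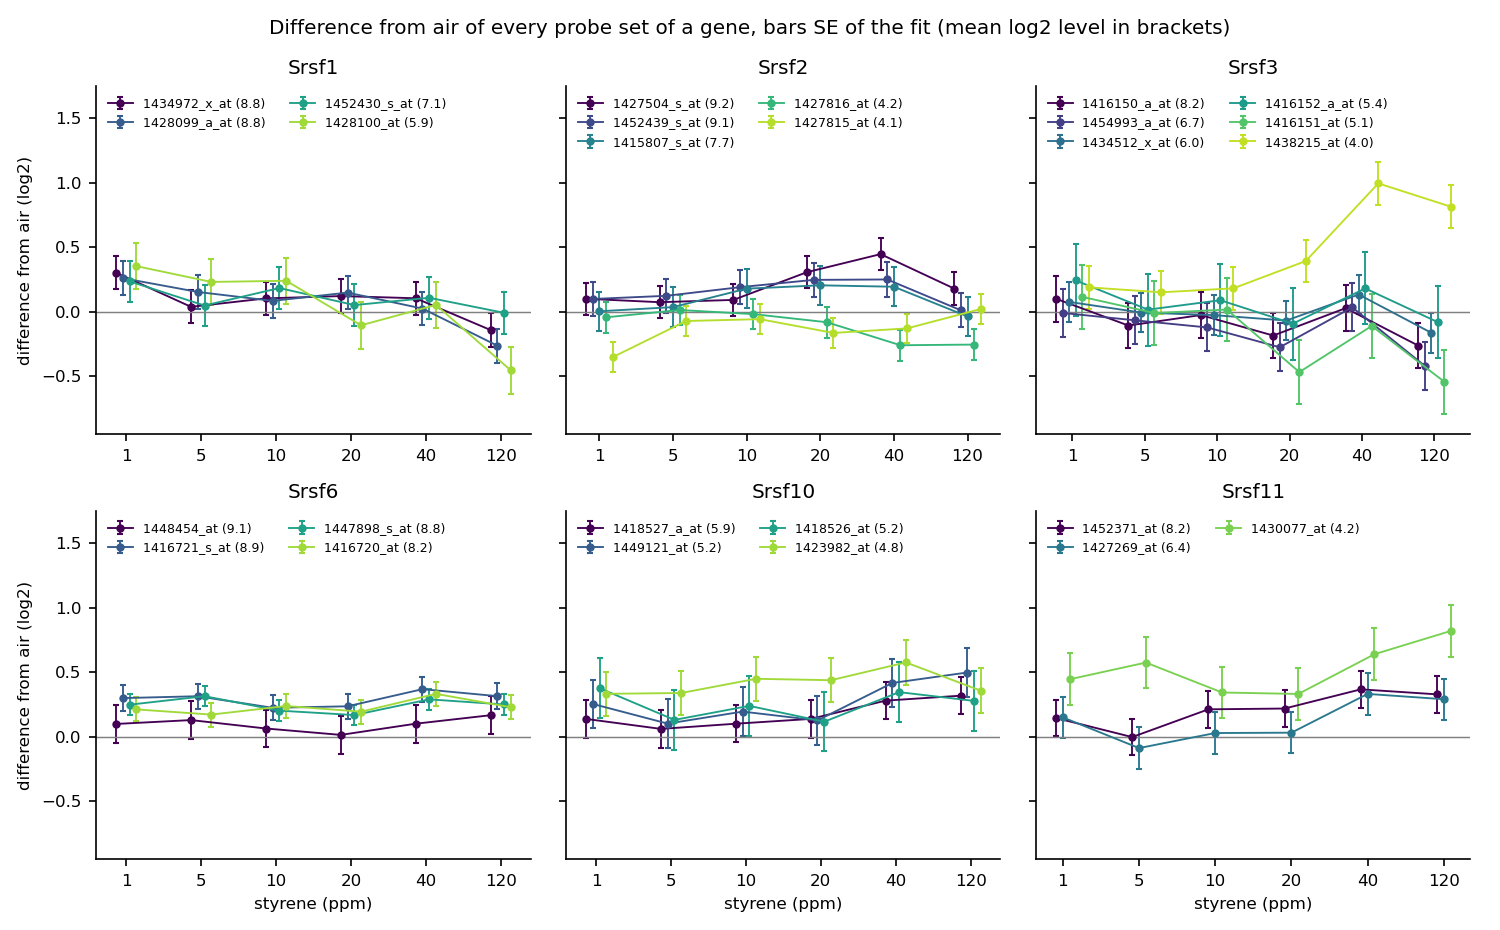
Log2 difference from air against styrene dose for every probe set of the 6 genes with more than 1 set, with the standard error of the fit as bars and the mean log2 level of each set in brackets. Srsf3 set 1438215_PM_at leaves the other 5 at 40 and 120 ppm, and the 4 Srsf1 sets all drop from 1 ppm to 120 ppm.

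With all doses entered as a slope on log2(ppm + 1), 7 of the 28 sets were called higher and 3 lower, against 21.2% and 10.8% of all probe sets. The 7 were Srsf2 1427504_PM_s_at, Srsf3 1438215_PM_at, Srsf6 1416721_PM_s_at and 1416720_PM_at, Srsf10 1449121_PM_at and Srsf11 1452371_PM_at and 1430077_PM_at. The 3 were Srsf1 1428100_PM_at, Srsf2 1427816_PM_at and Srsf3 1416151_PM_at. The largest slope was that of Srsf3 1438215_PM_at, 0.13 ± 0.02 log2 units per doubling of (ppm + 1). Srsf2 and Srsf3 thus had sets on both sides. This slope uses the same mice as the choice of members and is a description.

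Because many sets stood above air from the lowest dose, 40 and 120 ppm were also set against the mean of the 1, 5 and 10 ppm groups, a comparison added after the values were seen. It uses the same arrays as the choice of members, so its calls are a description too. Against that mean, air was lower in 24 of 28 sets, with a median of -0.13 against -0.004 over all probe sets. That direction was known when the comparison was added. For air 1 set was called lower, Tra2b by 0.44 ± 0.08. The share of all probe sets called for air is not given, so nothing is read from that call. At 40 ppm 2 sets were called higher and 0 lower, with a median of 0.09 against 0.04 over all probe sets. These were Srsf3 1438215_PM_at, at 0.82 ± 0.14, and Srsf2 1427504_PM_s_at, at 0.36 ± 0.10. The shares called over all probe sets were 13.2% higher and 7.06% lower.

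At 120 ppm the same comparison gave 1 set higher and 4 lower, with a median of -0.02 against 0.05, beside 17.3% higher and 8.83% lower over all probe sets. The set above was Srsf3 1438215_PM_at, at 0.64 ± 0.14. The lower sets were Srsf1 1434972_PM_x_at, 1428099_PM_a_at and 1428100_PM_at, at -0.29 ± 0.11, -0.43 ± 0.11 and -0.73 ± 0.15, and Srsf3 1416151_PM_at, at -0.58 ± 0.20. Srsf1 1428099_PM_a_at and 1428100_PM_at were called in 28 of 28 and 27 of 27 alternative settings. Srsf1 1434972_PM_x_at was called in 16 of 28. Srsf3 1416151_PM_at lost its call without 120 ppm replicate 4 or replicate 5.

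**Figure D4:**
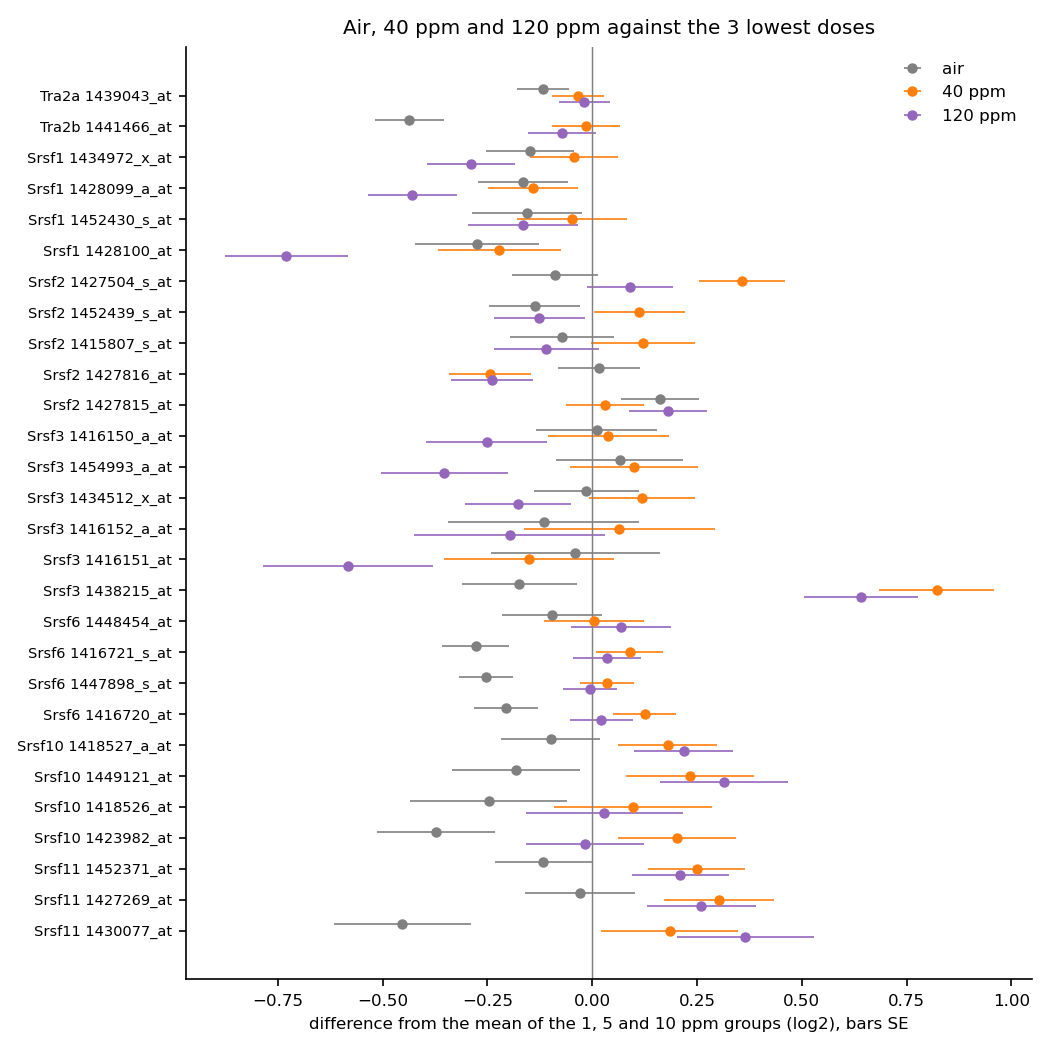
Log2 difference of air, 40 ppm and 120 ppm from the mean of the 1, 5 and 10 ppm groups for each of the 28 probe sets, with standard errors. Air lies to the left in 24 of 28 sets; at 120 ppm the 4 Srsf1 sets lie to the left, at -0.16 to -0.73, while Srsf11 and Srsf10 1418527_PM_a_at lie to the right.

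Measures of the arrays moved with dose beside these values. The median of an array was 3.50 ± 0.02 in air, 3.57 ± 0.02 at 40 ppm and 3.60 ± 0.03 at 120 ppm (SD, n = 5), and the exact two-sided permutation test gave an adjusted p of 0.0286 at both doses over 18 such tests. The actin control's 3′ minus 5′ difference, which grows with RNA degradation or incomplete copying, was 0.48 ± 0.05 in air and 0.53 at both 1 and 5 ppm. At 10 ppm it was 0.58 ± 0.05, with an adjusted exact permutation p of 0.0714. The 20, 40 and 120 ppm groups had 0.72 ± 0.11, 0.71 ± 0.07 and 0.72 ± 0.05, with an adjusted exact permutation p of 0.0286 at each. That of GAPDH passed at no dose. Their part in the splicing factor values was not tested. With each array centred on its median, the 40 ppm group had 4 member sets called higher and 0 lower, and the 120 ppm group 2 in each direction. Over all probe sets centring turned the balance, to 6.02% higher and 8.58% lower at 40 ppm and 6.53% higher and 12.3% lower at 120 ppm.

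The group differences from air do not use the order of mice within groups, so the order by the number in their sample titles was tested. Earlier results of these data were known when the genes were chosen, so this test may not be fully independent of the choice. The title numbers rise with dose and no 2 groups overlap, so this order and dose cannot be told apart between groups, and what the order stands for is not stated. Within groups, limma's slope per place was below 0 for 20 of the 28 sets. At an adjusted p under 0.05, 2 were lower and 0 higher, beside 0.984% lower and 1.34% higher over all probe sets. At an unadjusted p under 0.05, 5 were lower and 1 higher, beside 5.41% and 7.37%. Srsf2 1452439_PM_s_at fell by 0.082 ± 0.021 per place (adjusted p from limma 0.0258), in 6 of 7 groups. Srsf3 1416150_PM_a_at fell by 0.10 ± 0.03 per place (adjusted p from limma 0.0476), in 7 of 7 groups. From the first to the last place this is larger than the group differences from air of both sets.

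Srsf3 1438215_PM_at had a positive slope in 7 of 7 groups, 0.081 ± 0.029 per place, which missed the threshold (limma adjusted p = 0.155). This pair of Srsf3 sets thus had slopes of opposite sign within groups. The test over air, 1, 5 and 10 ppm alone kept 1 set, and that over 20, 40 and 120 ppm kept 0. The shares over all probe sets in these smaller fits are not given, so nothing is read from these counts. With the place as a covariate, the counts of member sets called against air were the same, 8 higher at 40 ppm and 5 higher at 120 ppm.

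**Figure D5:**
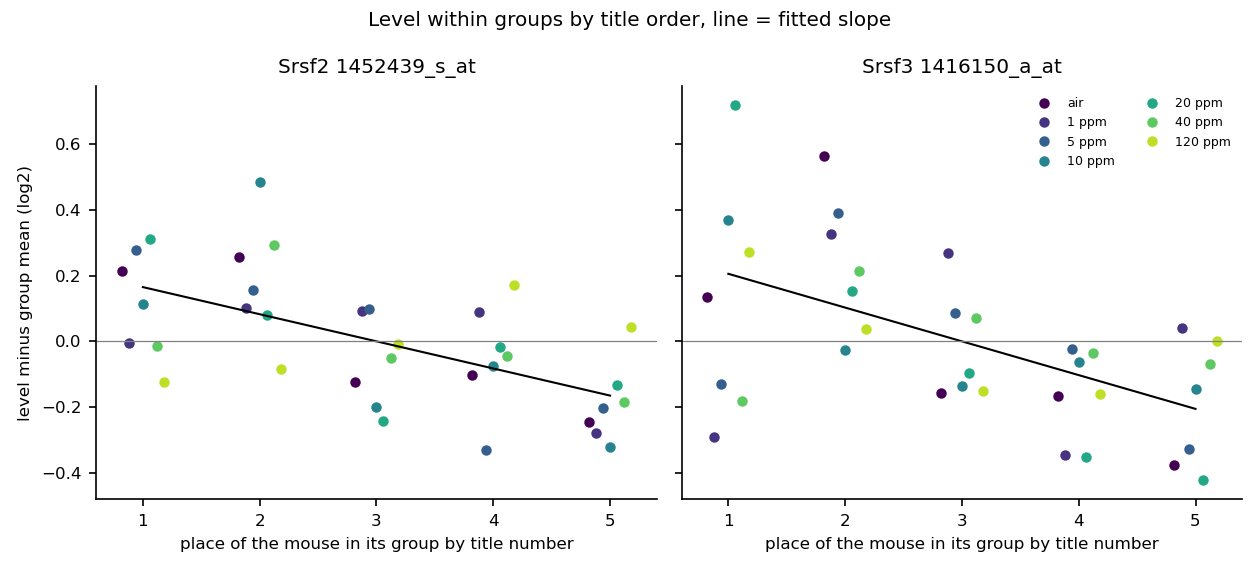
Log2 level minus the group mean against the place of each mouse in its group by title number, for Srsf2 1452439_PM_s_at and Srsf3 1416150_PM_a_at; colours are doses and the line is the fitted slope, -0.082 and -0.10 per place.

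The members did not vary as 1 block from mouse to mouse. Between highest-reading sets, with group means subtracted, Pearson r over 35 arrays was 0.71 for Srsf1 with Srsf11, 0.67 for Srsf10 with Srsf11, 0.60 for Srsf1 with Srsf3, and 0.55 for Srsf1 with Srsf10 and for Srsf2 with Srsf3. Tra2b had r of -0.39 with Srsf1 and -0.35 with Srsf11. Tra2a and Tra2b had r of -0.18 with each other. All 28 pairs share arrays, and r is given with no test.

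Among 5890 genes whose highest-reading set averaged at least 6, the pattern most like that of Srsf11 was that of Polr2b, the second-largest subunit of RNA polymerase II, at r = 0.93 with group means subtracted, followed by Pik3c2a at 0.92. Over all arrays without subtraction it was Sf3b1, a core subunit of the U2 particle, at 0.93. For Srsf10 these were Phf3 at 0.89 and Zzz3 at 0.88, and for Srsf1 Hccs at 0.89 and the poly(A) polymerase Papola at 0.87. For Srsf6 they were Helz2 at 0.86 and Tdg at 0.85, for Srsf3 Klf3 at 0.79 and Mal2 at 0.76, and for Srsf2 Rsl24d1 at 0.76 and Slc16a1 at 0.69. For Tra2a and Tra2b the highest r was 0.58 (Elavl1) and 0.60 (Epha2).

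The other splicing genes come from 7 lists of 164 genes, of which 138 were measured, 1 highest-reading set per gene. By limma 23 rose and 6 fell at 40 ppm, and 20 rose and 16 fell at 120 ppm, against 8.74% and 6.24% of the 17097 genes at 40 ppm and 11.2% and 7.99% at 120 ppm. Of the 138, 1 rose at 20 ppm. With arrays centred on their medians, 8 rose and 26 fell at 120 ppm, so the balance of directions depends on the scaling. Over all probe sets centring turned the balance too, to 6.53% higher and 12.3% lower. The share over all genes with centred arrays is not given, so nothing is read from the centred counts, here or by list. In 9 of the 20 that rose and 10 of the 16 that fell, all 5 mice at 120 ppm lay beyond every air mouse. These genes were called on the same mice, which makes such separation likely. The share over all genes is not given, so nothing is read from these counts.

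Of the 3 other SR genes, 0 passed limma's adjusted threshold at 120 ppm, with 1 higher and 1 lower at an unadjusted p under 0.05. The differences were 0.27 ± 0.12 for Srsf12, 0.04 ± 0.12 for Srsf4 and -0.23 ± 0.10 for Srsf9. Of 13 genes for the kinases, phosphatases and import of SR proteins, 1 rose and 0 fell, the same at an unadjusted p under 0.05: Ppp1cc, a catalytic subunit of protein phosphatase 1, went from 10.3 ± 0.12 to 10.9 ± 0.17 (SD, n = 5), a log2 difference of 0.55 ± 0.10 (limma adjusted p = 0.000227, all 5 mice above the air range). The median of that list was 0.20, against 0.04 over all genes.

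Of 25 measured SR-related genes of 30 listed, 6 rose and 1 fell at 120 ppm, or 3 and 2 with centred arrays, with a median of 0.27. Luc7l2, which acts at 5′ splice sites, rose by 1.06 ± 0.21 (limma adjusted p = 0.000678, 5 of 5 mice above the air range) and Bclaf1 by 0.93 ± 0.22 (limma adjusted p = 0.00344, 5 of 5). Rbm39 rose by 0.63 ± 0.15 (limma adjusted p = 0.00373, 4 of 5) and Prpf38b by 0.50 ± 0.15 (limma adjusted p = 0.0167, 3 of 5). The call of Prpf38b was lost without air replicate 1 or 120 ppm replicate 5 and with centred arrays. Beside these, the Srsf11 and Srsf10 sets differed from air by 0.28 to 0.82 at the same dose.

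Among 22 measured hnRNP genes of 28, whose proteins often act against SR proteins at exons, 5 rose and 1 fell, but 1 rose and 2 fell with centred arrays, with a median of 0.04. Syncrip rose by 0.70 ± 0.19 (limma adjusted p = 0.0108, 3 of 5 mice above the air range), Hnrnpd by 0.61 ± 0.18 (adjusted p = 0.018, 4 of 5) and Hnrnpdl by 0.39 ± 0.12 (adjusted p = 0.0251, 5 of 5), and Pcbp1 fell by 0.46 ± 0.10 (adjusted p = 0.00221, 5 of 5 below). The calls of Hnrnpd and Hnrnpdl were lost with centred arrays, that of Hnrnpd also without air replicate 4 or 120 ppm replicate 1, and that of Hnrnpdl without air replicate 2 or 120 ppm replicate 4.

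Of 23 measured other regulators of 29, 6 rose and 2 fell, but 2 rose and 3 fell with centred arrays, with a median of 0.14. Elavl1, the stabiliser of AU-rich transcripts HuR, fell by 0.70 ± 0.12 (limma adjusted p = 0.000196, 5 of 5 mice below the air range) and Rbm4 by 0.44 ± 0.12 (adjusted p = 0.00949, 4 of 5). Fubp1 rose by 0.52 ± 0.14 (adjusted p = 0.0115, 4 of 5) and Tia1 by 0.41 ± 0.14 (adjusted p = 0.0313, 4 of 5). The call of Tia1 was lost with centred arrays and on leaving out air replicate 2, 3 or 4 or 120 ppm replicate 3, 4 or 5.

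Of 41 measured genes of the core spliceosome of 44 listed, 1 rose and 12 fell at 120 ppm, or 0 and 16 with centred arrays, with a median of -0.13. Snrpf, a ring protein of the small nuclear ribonucleoproteins, fell by 0.58 ± 0.13 (limma adjusted p = 0.00166, 5 of 5 mice below the air range), Prpf31 by 0.47 ± 0.13 (adjusted p = 0.00836, 4 of 5) and Snrpd1 by 0.43 ± 0.13 (adjusted p = 0.0174, 3 of 5). The 1 that rose was the helicase Ddx5, by 0.57 ± 0.17 (adjusted p = 0.0185, 5 of 5), which missed the threshold with centred arrays. Snrpd1 missed it without air replicate 2. The difference between the lists was not tested.

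Of 11 measured genes of nonsense-mediated decay and the exon junction of 17 listed, the pathway that clears poison-exon transcripts, 1 rose and 0 fell at 120 ppm, or 1 and 2 with centred arrays, with a median of -0.10. At an unadjusted p under 0.05 limma gave 2 higher and 2 lower. It was Smg6, the endonuclease of the pathway, at 4.42 ± 0.24 in air and 5.12 ± 0.10 at 120 ppm (SD, n = 5), a difference of 0.69 ± 0.15 (limma adjusted p = 0.00183, 5 of 5 mice above the air range). Apart from the 3 other SR genes, none of which was called, the genes named in these lists were the 4 of largest difference among those called, where a list had as many.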

How the data were processed

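The authors deposited 1 table of log2 levels per probe set and array, made with RMA and Partek (no version given) per the submitters' processing notes. The base of the logarithm was taken as 2 from the range of values, 1.74 to 14.2, and changes rest on that reading. Scanner files were not used here, so no probe set could be judged against background. The number of arrays limits precision. RMA levels near the bottom of the scale understate changes.

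Of 45141 probe sets, 104 controls were left out. Symbols came from a platform annotation table (28898 probe sets with 1 symbol, 551 with several, 15588 with none) and were checked against a RefSeq table of GRCm38.p6, which changed 0. In R 4.3.3, limma 3.58.1 fitted 7 group means over 35 arrays, with 28 residual degrees of freedom and Benjamini-Hochberg adjustment over 45037 probe sets. The scripts were tested on simulated data. Figures used Python 3 and matplotlib.

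The members and lists were chosen with earlier results of these data known. Each gene's highest-reading probe set is given in full, and another of its sets where its 120 ppm difference lies over 0.5 from it. Of each list up to 4 called genes of largest difference at 120 ppm are named. Mice are numbered within groups as in the labels, which call them biological replicates. Alternatives were another scaling, brighter probe sets, other variance models, a replicate block and leaving out mice.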

Additional observations from a re-analysis of the deposited data

Results flagged for a closer look

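In a group of 5 mice, a value was picked out where its gap to the nearest other mouse was over 0.71 of the group's range. Over 14 member probe sets and 7 groups, 5 of 98 groups met this, and chance alone picks out about 1 in 20. The Tra2a set read 2.83 in 120 ppm replicate 3, above the other 4 mice. Srsf3 1416150_PM_a_at read 8.59 in 10 ppm replicate 1, above its group. Srsf6 1448454_PM_at read 9.44 in 40 ppm replicate 2, again above its group. In 5 ppm replicate 1, the array that correlated least with its own group (mean r 0.979), Srsf3 1438215_PM_at read 3.18 and Srsf11 1430077_PM_at 3.66, both below the other 4 mice.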

How the results depend on the processing

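These counts of calls moved by over 1.5 times. Member sets called higher at 40 ppm were 8, but 4 with arrays centred on their medians, 5 with a second quantile normalization and 4 among probe sets of mean at least 6; leaving out 1 mouse gave 5 to 8, with 5 without air replicate 3, air replicate 4 or 40 ppm replicate 2. The called sets of Tra2b, Srsf3, Srsf10 and Srsf11 average under 6, so the filter for brighter sets removes them whatever their differences. Member sets called lower at 40 ppm were 0, but 1 with the second quantile normalization. At 120 ppm 5 were higher, but 2 when centred, 2 among brighter sets, and 8 with array weights or with only the groups compared; leaving out 1 mouse gave 3 to 6, with 3 without air replicate 3, air replicate 4 or 120 ppm replicate 4. The 0 lower became 2 when centred, 4 with the second quantile normalization, and 1 with array weights, with only the groups compared or without the 2 least correlated arrays (added after seeing the data); leaving out 1 mouse gave 0 to 1. Against 1, 5 and 10 ppm, the set higher at 120 ppm averaged 4.02 and so was not among the brighter sets (0). The 4 lower became 2 there, since Srsf1 1428100_PM_at (mean 5.94) and Srsf3 1416151_PM_at (mean 5.07) were left out as well. Leaving out 1 mouse gave 1 to 2 higher and 2 to 5 lower, with 2 lower without 120 ppm replicate 4. Other splicing genes at 40 ppm rose in 14 when centred and fell in 10 with the second quantile normalization, and leaving out 1 mouse gave 3 to 7 fallen, with 3 without air replicate 2, air replicate 3 or 40 ppm replicate 5. At 120 ppm they rose in 8 and fell in 26 when centred. Over all probe sets, centring took 4384 higher and 2202 lower at 40 ppm to 2712 and 3863, and 5846 and 2881 at 120 ppm to 2943 and 5560. The second quantile normalization left 2732 and 3570 higher and 3234 and 4100 lower at 40 and 120 ppm. Among brighter sets, which are fewer, 1302 and 1341 were higher and 1133 and 1464 lower. At 120 ppm array weights gave 7000 higher and 3416 lower over all probe sets, and only the groups compared gave 6055 and 2772. The sets falling with title place were 1 over air to 10 ppm and 0 over 20 to 120 ppm, where fewer mice were tested. The shares over all probe sets in those fits are not given. For the rest the cause was not tested.

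With the replicate number as a replicate block, the member sets called higher were 8 at 40 ppm and 5 at 120 ppm, as without it. Same-numbered mice correlated at -0.083 to 0.18 after group means were subtracted, and the labels state no pairing between them. The replicate number follows the order of the title numbers within a group, so it is also the place tested above. No value reversed its direction while called.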
